A study of Mus musculus with 6 samples.

Results

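The semaphorins, plexins and neuropilins form a family of axon guidance ligands and their receptors. The 31 genes described here were taken by symbol from a count table of 34866 genes, and comprised 20 semaphorin ligands and 11 receptors (9 plexins and 2 neuropilins). All 31 had a row, and 30 passed the filter on low counts. Plxnb3 did not, with at most 0.395 CPM in any library, CPM being the count scaled to the size of its library. The 6 libraries hold forebrain RNA of mouse embryos of stage E14.5. Of these, 3 were labelled mutant, with the Sap130 genotype f/- and Emx1-cre, so that no wild-type allele is present. The other 3 were controls with the genotype f/+, which also carried Emx1-cre. The SAP130 protein belongs to the Sin3 co-repressor, a histone deacetylase complex, and Emx1-driven Cre acts mainly in cortical progenitors and their progeny. Ventral forebrain cells in the same tissue mostly keep their floxed allele. Beside it they have no wild-type allele in the libraries labelled mutant and 1 in controls. The controls also have 1 wild-type allele in the cortical lineage, so cells of both kinds differ in genotype between the groups.

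Semaphorins are secreted or membrane-bound proteins that share a sema domain, and most act by collapsing or turning growth cones. Plexins are their main receptors and act through a GTPase-activating domain on small GTPases. The secreted class 3 semaphorins mostly need a neuropilin as the binding co-receptor of an A plexin, while membrane-bound semaphorins usually bind plexins directly. In the embryonic forebrain the family steers callosal, corticofugal and thalamocortical axons, guides radial migration and the sorting of interneurons between striatum and cortex, and patterns blood vessels.

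Total estimated counts were 20775429 to 25999747 per library. Sap130 itself was at 138, 124 and 124 CPM in the libraries labelled mutant, against 82.8, 84.9 and 84.4 CPM in controls, a log2 fold change of 0.61 (SE 0.0764, adjusted p = 0.0116 in the quasi-likelihood test of edgeR). This goes against what a label of a lost gene leads to, although counts over the whole gene include transcripts that lack only the floxed part. All directions below are those of the libraries as labelled. Library titles carried the number SPF-539 (replicate 1 of each group) or SPF-552 (the other 2 of each), and the labels do not say what the number stands for. Replicate 1 of the libraries labelled mutant also stood apart in exon length: its log2 CPM deviation had a slope of 0.0962 per doubling of exon length, against -0.0253 to -0.0051 in the other 5 libraries, and the tested members had a median exon length of 7.8 kb, against 4.44 kb over all tested genes. Of the cell type markers, those of excitatory cortical neurons summed to 1074 to 1307 CPM in the libraries labelled mutant and 1507 to 1576 CPM in controls, and Neurod2 and Neurod6 were past the threshold and lower. Intermediate progenitor markers summed to 382 to 411 CPM in the libraries labelled mutant and 517 to 544 CPM in controls. Ganglionic eminence and inhibitory neuron markers summed to 991 to 1119 CPM in the libraries labelled mutant and 806 to 926 CPM in controls, and none of the 10 passed, with 7 higher at an unadjusted p under 0.05, where 5.22% of all tested genes were. Cajal-Retzius and hem markers summed to 411 to 556 CPM in the libraries labelled mutant and 352 to 362 CPM in controls, and diencephalon markers to 420 to 518 CPM in the libraries labelled mutant and 344 to 380 CPM in controls. At the same level 5 of 6 Cajal-Retzius and hem markers and 4 of 6 diencephalon markers were higher, and none passed. No marker of these lists was at 0 in every library. The part of these shifts in the results below was not tested, and in bulk tissue fewer cells of a type and less RNA per cell cannot be told apart.

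The question was how the ligands and the receptors of this guidance system differed between the groups. The receptors lay mostly higher in the libraries labelled mutant and the ligands showed no common direction, but no single member passed the test. With an offset for exon length, receptors at an unadjusted p under 0.05 lay in both directions, as given below. None of the 30 tested members passed an FDR of 0.05 in edgeR's quasi-likelihood (QL) test, where 0.138% of all 15216 tested genes did, and none passed an FDR of 0.1 (0.368% of all genes). At an unadjusted p under 0.05, 9 members were higher and 2 were lower, which is 36.7% of the 30 against 9.6% of all tested genes (5.22% higher and 4.38% lower). Of the 10044 tested genes within the members' range of exon length, 3.3 to 18.7 kb, 6.59% were higher and 3.58% lower. This range holds most tested genes and is not matched to the members' lengths within it. The 9 higher members were Plxna1, Plxnb1, Plxnb2, Plxnc1, Plxnd1, Nrp2, Sema5b, Sema6a and Sema6c, and the 2 lower ones were Sema7a and Sema4d. A log2 fold change above 0 was found for 17 of the 30, against 49.9% of all tested genes. Among the 10 tested receptors 6 were higher at that level and 0 lower, with a median log2 fold change of 0.18. Among the 20 ligands 3 were higher and 2 lower, with a median of 0.01, beside a median of -0.0003 over all tested genes. The 3 values of each group did not overlap for 11 members, 10 of them higher in the libraries labelled mutant and 1 lower, against 8.17% and 8.49% of all tested genes (16.7% in either direction). For each of these 11 the exact two-sided permutation p over libraries was 0.1, the smallest that 3 against 3 allow.

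Both counts depended on single libraries. Without replicates 1, 2 and 3 of the libraries labelled mutant in turn, 9, 5 and 7 members were higher at an unadjusted p under 0.05, where 6.96%, 4.15% and 5.08% of all genes were. Without control replicates 1, 2 and 3 in turn, 6, 3 and 5 members were higher (3.96%, 3.23% and 4.76% of all genes). The count was lowest without control replicate 2. The lower members numbered 5, 1 and 0 without replicates 1, 2 and 3 of the libraries labelled mutant (7.21%, 3.75% and 4.09% of all genes), and 0, 2 and 2 without control replicates 1, 2 and 3 (3.24%, 2.77% and 3.66% of all genes). With a per-library offset for exon length, 6 members were higher and 5 lower (5.51% and 4.79% of all genes), and the median of the receptors was 0.12. The higher ones were then Plxna1, Plxnb2, Plxnc1, Plxnd1, Sema5b and Sema6c, and Plxnb1, Nrp2 and Sema6a no longer counted. Nrp1, Plxna2 and Plxna4, all of them receptors, joined Sema4d and Sema7a among the lower ones. The receptors at this level were thus no longer in 1 direction, with 4 higher. With the title number as a block, 9 were higher and 3 lower (6.92% and 6.22% of all genes), the third being Nrp1. With the offset and the block together, 8 were higher and 5 lower (7.85% and 7.42% of all genes), the lower ones being the same as with the offset alone.

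**Figure D1:**
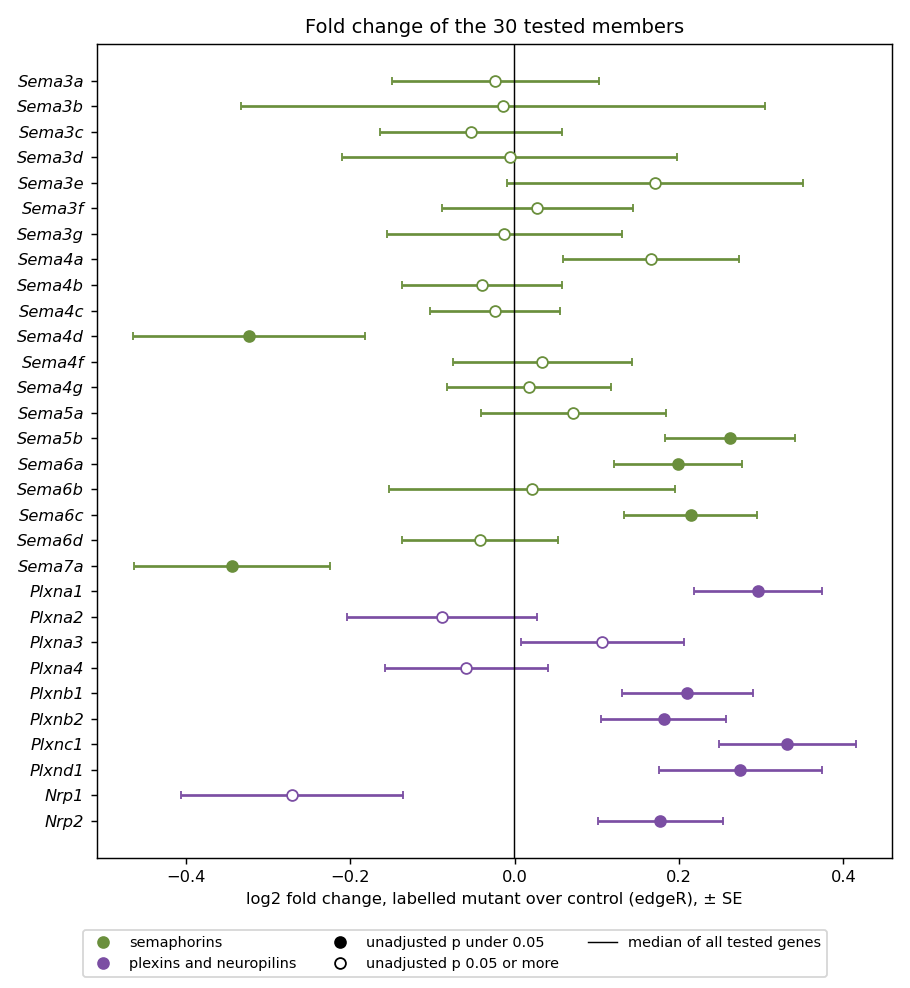
Log2 fold change (labelled mutant over control, edgeR, bars are ± SE) of the 30 tested members, semaphorins above and receptors below; filled points have an unadjusted p under 0.05 and the vertical line is the median of all tested genes. The B, C and D plexins lie together between 0.18 and 0.33, while the class 3 semaphorins lie on both sides of 0, from -0.05 to 0.17.

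All 4 tested B, C and D plexins were higher in the libraries labelled mutant without overlap, as were 8.17% of all tested genes. Their median log2 fold change was 0.24. Summed over the class, they reached 990, 954 and 920 CPM in the libraries labelled mutant, against 819, 812 and 822 CPM in controls. The lowest labelled mutant library lay above the highest control, which follows from the separation of each of the 4 genes. This sum was 1.17 times as high in the libraries labelled mutant, and it weights each gene by its length and level. Sums over all 9 plexins overlapped. They were 2351, 2183 and 2055 CPM in the libraries labelled mutant and 1955, 1982 and 2109 CPM in controls. Sums over all 11 receptors overlapped too, at 2350 to 2694 CPM in the libraries labelled mutant and 2247 to 2414 CPM in controls. The mean receptor sum was 1.08 times as high in the libraries labelled mutant. That of the ligands was 1.02 times as high, also with overlap.

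Plxnc1, the receptor of the GPI-anchored Sema7a, had the highest log2 fold change and the smallest p of the 30 tested members with all libraries. It was at 123, 119 and 119 CPM in libraries labelled mutant, against 86.4, 104 and 96.99 CPM in controls. Its log2 fold change was 0.33 (SE 0.0838, QL adjusted p = 0.186). The SD was 2.43 CPM in the libraries labelled mutant and 8.84 CPM in controls. The authors' deposited table lists Plxnc1 with a log2 fold change of 0.33 and an FDR of 0.0453. The direction of that table's fold changes is not stated in it, and Sap130 has 0.61 there. Its test score is headed LR, so its FDRs need not come from a test like the QL test. In edgeR's likelihood-ratio test run here, Plxnc1 had an adjusted p of 0.0667.

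Plxnd1, a receptor of Sema3E that is best known from blood vessels and is also found in cortical and striatal neurons, was at 182, 152 and 146 CPM in libraries labelled mutant, against 145, 123 and 129 CPM in controls. The lowest library labelled mutant exceeded the highest control by less than 1 CPM, and in both groups the SPF-539 library was the highest. Its log2 fold change was 0.27 (SE 0.0991, QL adjusted p = 0.387), and 0.17 without replicate 1 of the libraries labelled mutant. Endothelial markers summed to 279 to 286 CPM in the libraries labelled mutant and to 265 to 298 CPM in controls, so that the groups overlapped in this measure. Ganglionic eminence and inhibitory neuron markers were higher and excitatory cortical neuron markers lower in sum, as given above. The part of any of these cell types in the Plxnd1 values was not tested.

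Plxnb1 and Plxnb2 are receptors of class 4 semaphorins, Sema4D among them, and Plxnb2 is known from dividing neural progenitors. Plxnb1 was at 270, 296 and 272 CPM in libraries labelled mutant, against 227, 240 and 257 CPM in controls, with a log2 fold change of 0.21 (SE 0.08, QL adjusted p = 0.415). Plxnb2 was at 415, 386 and 383 CPM in libraries labelled mutant, against 360, 344 and 339.9 CPM in controls, with a log2 fold change of 0.18 (SE 0.0758, QL adjusted p = 0.466). Neither gene showed overlap between the groups. Radial glia markers summed to 1527 to 1750 CPM in the libraries labelled mutant and to 1493 to 1582 CPM in controls, and these ranges overlapped.

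The promoters of 3 of these plexins are shown with that of Sema7a, the ligand with the lowest log2 fold change with all libraries. They are RefSeq sequences of GRCm38.p6, 250 bases before to 50 bases after the annotated start, written 5′ to 3′ on the strand of the gene. Capitals mark CAGATG and CAGCTG E-boxes, as bound by neuronal bHLH factors, and GGGCGG boxes, as bound by SP factors, on either strand.
Plxnc1 (chr10:94944796-94945095, minus strand): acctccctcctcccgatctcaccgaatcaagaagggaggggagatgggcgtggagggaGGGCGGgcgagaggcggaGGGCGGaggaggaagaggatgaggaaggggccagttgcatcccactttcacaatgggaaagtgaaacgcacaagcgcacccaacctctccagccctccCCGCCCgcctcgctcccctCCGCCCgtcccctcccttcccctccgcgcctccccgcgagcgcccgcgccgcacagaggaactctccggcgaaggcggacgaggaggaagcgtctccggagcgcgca
Plxnd1 (chr6:115994956-115995255, minus strand): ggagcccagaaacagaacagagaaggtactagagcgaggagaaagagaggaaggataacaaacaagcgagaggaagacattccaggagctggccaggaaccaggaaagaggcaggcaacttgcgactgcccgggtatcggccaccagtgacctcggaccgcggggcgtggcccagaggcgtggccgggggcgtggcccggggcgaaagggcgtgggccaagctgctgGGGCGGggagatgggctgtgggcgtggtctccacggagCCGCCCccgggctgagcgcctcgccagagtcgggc
Plxnb1 (chr9:109095186-109095485, plus strand): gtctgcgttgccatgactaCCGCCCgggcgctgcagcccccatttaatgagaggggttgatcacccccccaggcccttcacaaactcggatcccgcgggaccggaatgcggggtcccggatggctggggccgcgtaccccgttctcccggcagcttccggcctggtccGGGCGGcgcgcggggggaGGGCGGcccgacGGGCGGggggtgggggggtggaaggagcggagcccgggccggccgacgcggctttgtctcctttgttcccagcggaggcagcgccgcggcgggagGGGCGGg
Sema7a (chr9:57939862-57940161, plus strand): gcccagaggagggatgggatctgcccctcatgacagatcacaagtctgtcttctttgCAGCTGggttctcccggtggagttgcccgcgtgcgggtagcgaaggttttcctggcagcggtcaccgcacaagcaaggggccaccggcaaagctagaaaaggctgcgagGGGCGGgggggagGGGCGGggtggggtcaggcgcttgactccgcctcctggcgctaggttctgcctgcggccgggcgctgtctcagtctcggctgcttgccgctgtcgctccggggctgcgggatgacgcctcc
The plexin windows held 4, 2 and 5 GGGCGG boxes in the order shown and neither E-box. The Sema7a window held 2 GGGCGG boxes and 1 CAGCTG, a palindrome counted once. Promoters were found for 26 of the 31 members (37 windows in all), and not for Plxna1, Plxna4, Sema3b, Sema3f and Sema6a. GGGCGG was present in 27 of these 37 windows, against 35.7% of 32851 windows in the whole table. CAGCTG was present in 6 and CAGATG in 2 of the 37, against 16.3% and 17.2% of all windows. The member windows had a median GC content of 63.7% and 15 CpGs, against 52.7% and 7 over the whole table. These matches describe the sequence only.

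**Figure D2:**
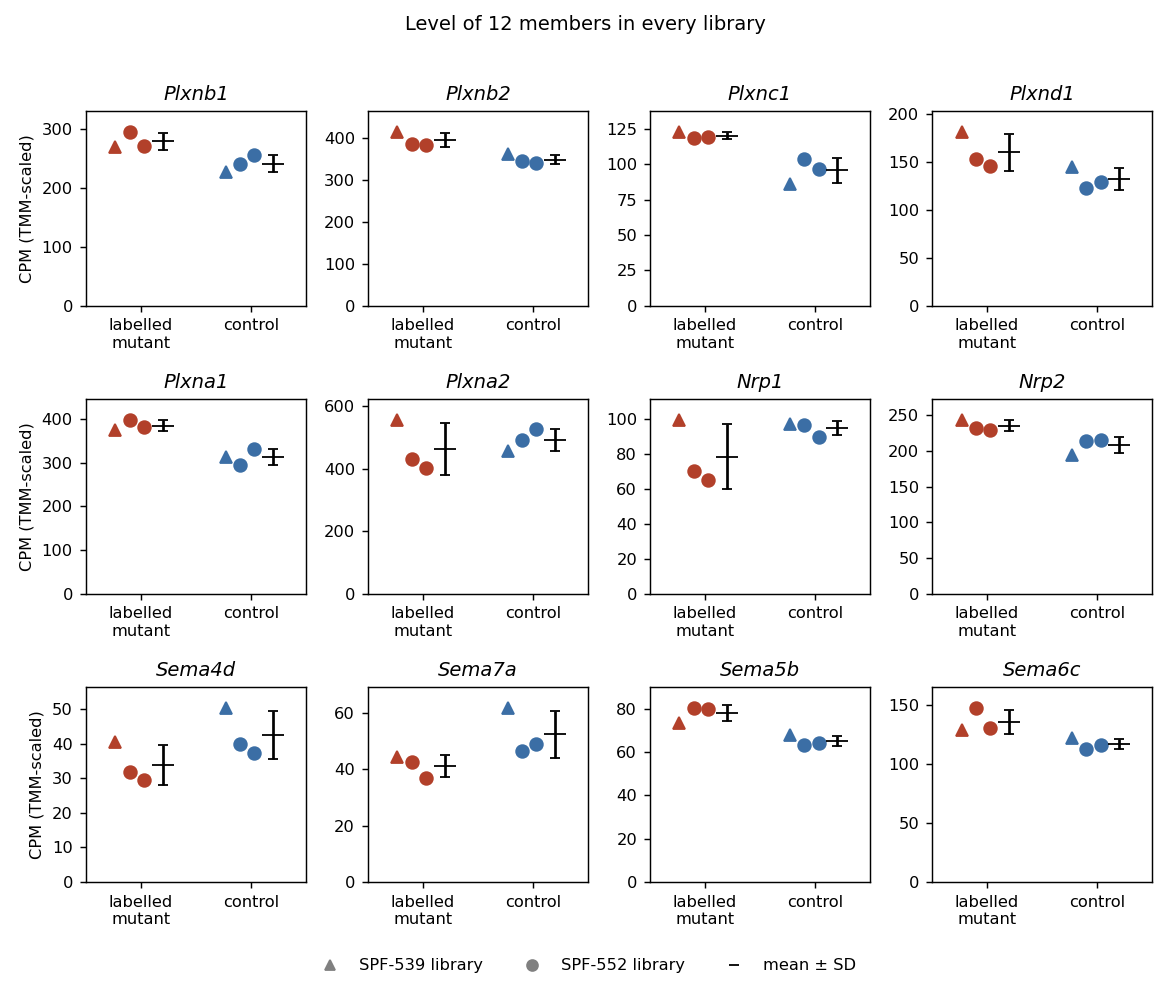
TMM-scaled CPM of 12 members in every library, labelled mutant left of control; triangles are SPF-539 and circles SPF-552 libraries, and the black mark with bars is the mean ± SD of 3 libraries. Plxnc1 and Plxna1 are separated between the groups, while in Nrp1 and Plxna2 replicate 1 of the libraries labelled mutant stands apart from the other 2.

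The A plexins, which serve class 3 semaphorins through neuropilins and bind class 6 semaphorins directly, lay on both sides of 0. Plxna1, a receptor of Sema3A complexes and of Sema6D, was at 374, 398 and 382 CPM in libraries labelled mutant, against 313, 295 and 332 CPM in controls. Every library labelled mutant lay above every control. Its log2 fold change was 0.30 (SE 0.0781, QL adjusted p = 0.204).

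Plxna2, a receptor of Sema6A, was at 558, 430 and 402 CPM in libraries labelled mutant, against 458, 493 and 527 CPM in controls. Replicate 1 of the libraries labelled mutant was the highest of the 6 and the other 2 were the lowest, so the groups overlapped (log2 fold change -0.09, SE 0.116). Plxna4, which pairs with Nrp1 for Sema3A and binds Sema6A, was at 261, 225 and 212 CPM in libraries labelled mutant, against 220, 241 and 266 CPM in controls (log2 fold change -0.06, SE 0.099). Plxna3, the usual partner of Nrp2 for Sema3F, was at 167, 177 and 139 CPM in libraries labelled mutant, against 145, 141 and 162 CPM in controls (0.11, SE 0.0987). These 3 genes overlapped between the groups, and Plxna1 was the only A plexin that did not.

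The neuropilins lay on opposite sides of 0. Nrp2, the co-receptor for Sema3F and Sema3C, was at 244, 232 and 229 CPM in libraries labelled mutant, against 195, 214 and 215 CPM in controls, without overlap (log2 fold change 0.18, SE 0.0762, QL adjusted p = 0.486). Nrp1, the co-receptor for Sema3A and also a receptor of VEGF, was at 99.6, 70.2 and 65.1 CPM in libraries labelled mutant, against 97.1, 96.8 and 89.95 CPM in controls. Replicates 2 and 3 of the libraries labelled mutant lay below every control, while replicate 1 lay above them. With all libraries the log2 fold change of Nrp1 was -0.27 (SE 0.135, QL adjusted p = 0.56). Without replicate 1 of the libraries labelled mutant it was -0.48 with an adjusted p of 0.00276, and within the SPF-552 libraries alone -0.46 with an adjusted p of 0.00138, both in the QL test. Without replicate 3 of the libraries labelled mutant it was -0.16. The difference between Nrp1 and Nrp2 was not tested.

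**Figure D3:**
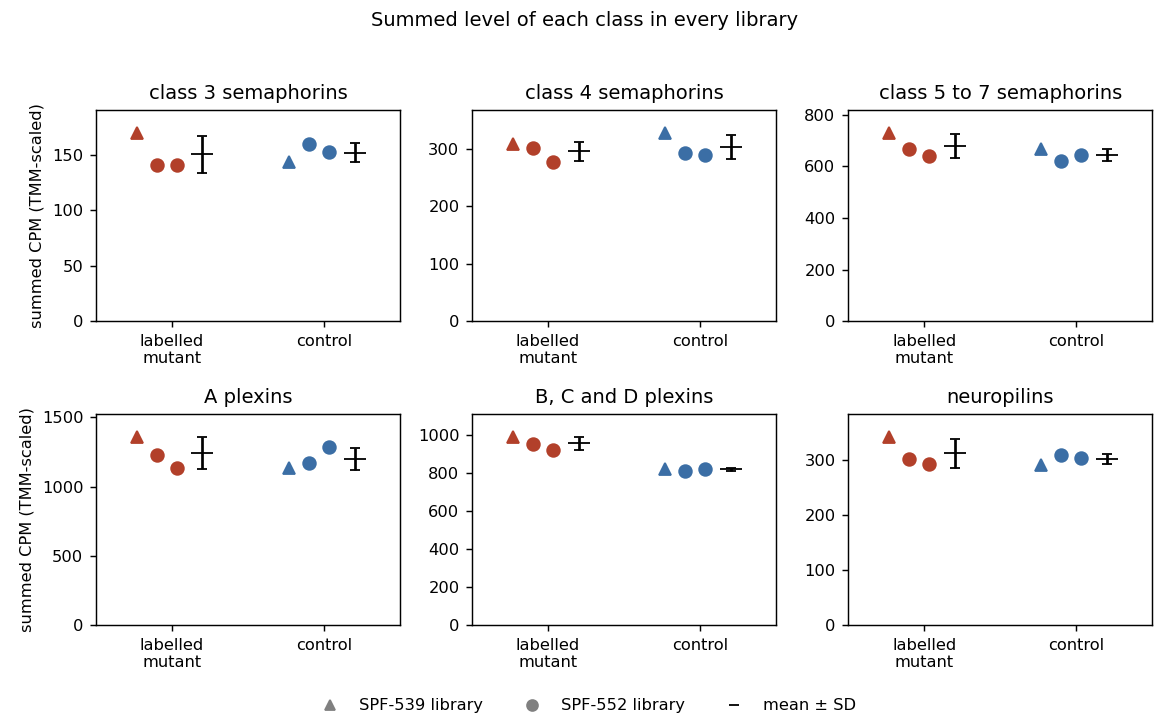
Summed TMM-scaled CPM of each class in every library, labelled mutant left of control; triangles are SPF-539 and circles SPF-552 libraries, and the black mark with bars is the mean ± SD of 3 libraries. Groups are separated for the B, C and D plexins, from 920 CPM upwards against 822 CPM or less in controls. This follows from the separation of each tested gene of that class. The groups overlap in the other 5 classes.

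The class 3 semaphorins, secreted cues that repel or attract growth cones through neuropilins, showed no difference past either threshold with all libraries. None of the 7 had an unadjusted p under 0.05, their median log2 fold change was -0.01, and in all 7 the groups overlapped. Sema3a, which repels the axons and attracts the apical dendrites of cortical neurons, was at 46.3, 35.3 and 38.4 CPM in libraries labelled mutant, against 34.6, 42.9 and 44.6 CPM in controls (log2 fold change -0.02, SE 0.126). Sema3c, an attractant of callosal axons, was at 62.6, 48.2 and 50.6 CPM in libraries labelled mutant, against 51.4, 61.5 and 54.8 CPM in controls (-0.05, SE 0.111). In both genes the SPF-539 pair and the SPF-552 libraries ran in opposite directions. Within the SPF-552 libraries alone both were lower at an unadjusted p under 0.05 in the QL test, as were 8.07% of all genes. Their log2 fold changes there were -0.25 and -0.23 (QL adjusted p of 0.118 and 0.137).

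Sema3f, a repellent that acts through Nrp2 and Plxna3, was at 37.1, 34.7 and 29.4 CPM in libraries labelled mutant, against 37.0, 31.2 and 31.0 CPM in controls (log2 fold change 0.03, SE 0.116). Sema3e, the ligand of Plxnd1, was at 7.52, 7.59 and 8.37 CPM in libraries labelled mutant, against 5.49, 8.51 and 6.88 CPM in controls (0.17, SE 0.18), and its log2 fold change was 0.03 without control replicate 1 and 0.34 without control replicate 2. At this SE a difference of the size found for Plxnd1 would not have been detectable in Sema3e. Sema3b, Sema3d and Sema3g were low, with group means of 2.40 to 8.43 CPM, and had log2 fold changes of -0.01 each.

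Among the class 4 semaphorins, transmembrane ligands of B plexins, Sema4d was the only one with an unadjusted p under 0.05. It was at 40.4, 31.9 and 29.4 CPM in libraries labelled mutant, against 50.4, 39.8 and 37.3 CPM in controls. The groups overlapped, and replicate 1 was the highest library of each. Within SPF-539 the log2 difference was -0.32 and within SPF-552 it was -0.33. With all libraries the log2 fold change was -0.32 (SE 0.141, QL adjusted p = 0.494). It was -0.18 without control replicate 1 and -0.47 without replicate 1 of the libraries labelled mutant. The authors' deposited table lists Sema4d with a log2 fold change of -0.37 and an FDR of 0.0294. In edgeR's likelihood-ratio test run here, Sema4d had an adjusted p of 0.492. Its receptors Plxnb1 and Plxnb2 lay in the other direction, as given above, and the difference between ligand and receptors was not tested.

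The other 5 class 4 genes had log2 fold changes of -0.04 to 0.17. Sema4a, named after its values were seen, had the highest of these, with 18.9, 21.2 and 20.4 CPM in the libraries labelled mutant and 18.1, 17.9 and 17.9 CPM in controls. Its groups did not overlap, with an exact permutation p of 0.1, and it was not among the members with an unadjusted p under 0.05. Sema4b, Sema4c, Sema4f and Sema4g overlapped between the groups.

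The class 5 to 7 semaphorins held the remaining differences. Sema7a, the GPI-anchored ligand of Plxnc1 and of beta1 integrins that promotes axon growth, was at 44.3, 42.8 and 37.0 CPM in libraries labelled mutant, against 62.0, 46.4 and 49.0 CPM in controls. Every library labelled mutant lay below every control. Its log2 fold change was -0.34 (SE 0.119, QL adjusted p = 0.361), and the authors' deposited table gives -0.34 with an FDR of 0.0709. Without control replicate 1 the log2 fold change of Sema7a was -0.21. With all libraries Sema7a and its receptor Plxnc1 had the lowest and the highest log2 fold changes of the 30 tested members, and neither passed. Without control replicate 1 these places were held by Nrp1 (-0.25) and Plxnd1 (0.35), and without replicate 1 of the libraries labelled mutant by Nrp1 (-0.48) and Plxna1 (0.32). Without control replicate 3 the lowest was Sema4d (-0.41).

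Sema5b, a transmembrane semaphorin with thrombospondin repeats that repels cortical axons, was at 73.5, 80.4 and 79.9 CPM in libraries labelled mutant, against 67.7, 63.1 and 64.1 CPM in controls (log2 fold change 0.26, SE 0.0792, QL adjusted p = 0.276). Sema6c was at 129, 148 and 131 CPM in libraries labelled mutant, against 122, 113 and 116 CPM in controls (0.21, SE 0.081, QL adjusted p = 0.415). Sema6a, a ligand of Plxna2 and Plxna4 that acts on thalamocortical axons, was at 84.8, 84.3 and 88.8 CPM in libraries labelled mutant, against 73.7, 71.5 and 79.4 CPM in controls (0.20, SE 0.0779, QL adjusted p = 0.437). None of the 3 overlapped between the groups. Sema6d, a ligand of Plxna1, was at 137, 114 and 107 CPM in libraries labelled mutant, against 126, 124 and 120.2 CPM in controls, with overlap (-0.04, SE 0.0948). Sema5a and Sema6b had log2 fold changes of 0.07 and 0.02 and overlapped.

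Read per kilobase of exon, the family spanned a wide range of levels. In the libraries labelled mutant Plxnb2 had the highest level at 51.1 CPM per kb, against 45.1 CPM per kb in controls, and Plxna1 followed at 42.5 against 34.6 CPM per kb in controls. The next in controls were Plxna2 at 28.7 ± 2.03 and Plxnb1 at 25.2 ± 1.54 CPM per kb (SD, n = 3), and the ligands Sema4c, Sema6c and Sema6b followed. Together with Plxna3 and Plxnd1 these ligands lay between 18.1 and 21.0 CPM per kb in controls, with SDs of 0.767 to 4.28, and their order was not resolved. In the libraries labelled mutant Sema6c was at 22.9 ± 1.77 and Sema4c at 20.7 ± 0.726 CPM per kb (SD, n = 3). The 5 lowest of the 30 tested genes in controls were class 3 semaphorins, down to 0.503 CPM per kb for Sema3b in the libraries labelled mutant and 0.511 CPM per kb in controls. The secreted cues Sema3b, Sema3d and Sema3e thus lay under 1 CPM per kb in both groups, so that small differences in them were not detectable at this depth.

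**Figure D4:**
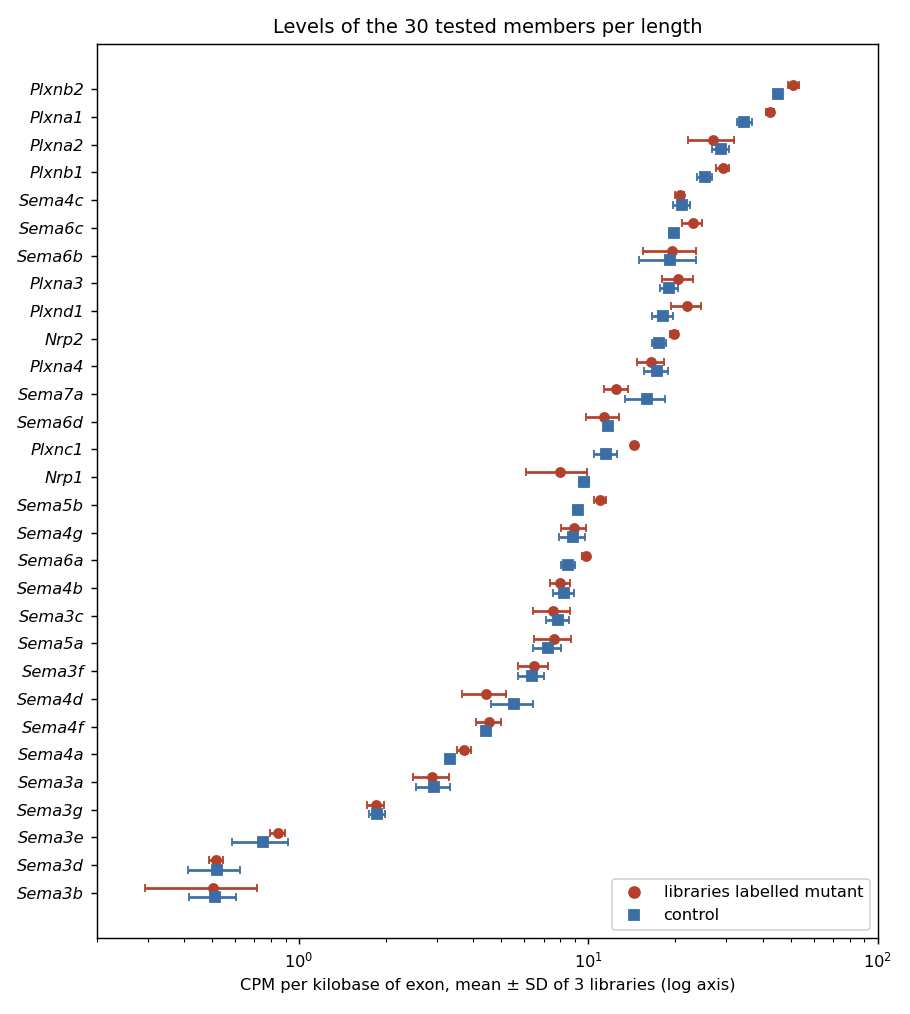
Mean CPM per kilobase of annotated exon (log axis, bars are ± SD of 3 libraries) of the 30 tested members, ordered by their control level, with labelled mutant above control in each row. The top 4 places in controls are plexins, led by Plxnb2 at 51.1 CPM per kb in the libraries labelled mutant, and Sema3b, Sema3d and Sema3e lie below 1.

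Values were also read within each title number, without a test. Of the 30 tested members 14 were higher in the libraries labelled mutant within both SPF-539 and SPF-552, 2 were lower within both (Sema4d and Sema7a), 11 were higher within SPF-539 and lower within SPF-552, and 3 ran the other way. All 10 tested receptors were higher within SPF-539 and 7 within SPF-552, so that 7 were among the 14 follows from these counts. Within SPF-539, where 1 library stands against 1, 25 members were higher (48.5% of all tested genes), with a median log2 difference of 0.20. The library labelled mutant in that pair is the one with the exon-length slope. Within SPF-552, 17 were higher (50.8% of all tested genes), with a median of 0.03. Counts of 25 and 17 out of 30 force most of the 14, so the 14 is no sign of agreement between the title numbers. The share of all tested genes higher within both was not taken. For Plxnc1 the differences were 0.51 within SPF-539 and 0.25 within SPF-552, for Plxna1 0.26 and 0.32, and for Plxnd1 0.33 and 0.24. Opposite signs were seen in Sema3b (0.83 and -0.54), Sema5a (0.46 and -0.13), Sema3a (0.42 and -0.25), Plxna2 (0.29 and -0.29) and Sema3c (0.28 and -0.23).

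Some members differed between the title numbers in both groups. Sema6b, named after its values were seen, is a class 6 semaphorin that acts through Plxna4. It was at 95.8 CPM in the library labelled mutant and 95.6 CPM in the control of SPF-539. In SPF-552 it was at 71.0 and 65.3 CPM in libraries labelled mutant, against 69.99 and 63.4 CPM in controls. In 6 of the 30 members (Sema3f, Sema4d, Sema4f, Sema6b, Sema6d and Nrp1) both SPF-539 libraries lay above all 4 SPF-552 libraries, as did 10.7% of all tested genes, and in 0 of the 30 they lay below, against 11.1% of all tested genes. Within the SPF-552 libraries alone, 8 members passed an FDR of 0.05 in the QL test (3.7% of all genes tested there), and 8 each were higher and lower at an unadjusted p under 0.05 (8.6% and 8.07% of all genes). The 8 lower ones were Sema3a, Sema3c, Sema4d, Sema6d, Sema7a, Plxna2, Plxna4 and Nrp1. Of the 8 past the FDR, Sema5b, Sema6c, Plxna1, Plxnc1 and Plxnd1 rose and Sema4d, Plxna2 and Nrp1 fell. Without replicate 1 of the libraries labelled mutant 3 passed, Plxna1 and Sema5b higher and Nrp1 lower (2.14% of all genes), and by DESeq2 on all libraries 2 passed, Plxna1 and Plxnc1, both higher (1.27% of all genes). With the exon-length offset and the block together 5 passed, Plxna1, Plxnc1 and Plxnd1 higher and Sema4d and Nrp1 lower (2.67% of all genes). No member passed with the offset alone (0.447% of all genes), the block alone (0.762%), limma-voom (0.092%), edgeR's likelihood-ratio test (0.986%), RLE factors (0.131%), upper-quartile factors or library totals (0.197% each), a count minimum of 20 (0.156%) or no filter (0.57%). None passed when another library was left out (0.0193% and 0.0577% of all genes without replicates 2 and 3 of the libraries labelled mutant, and 0.0453%, 0.0257% and 0.0324% without control replicates 1, 2 and 3).

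**Figure D5:**
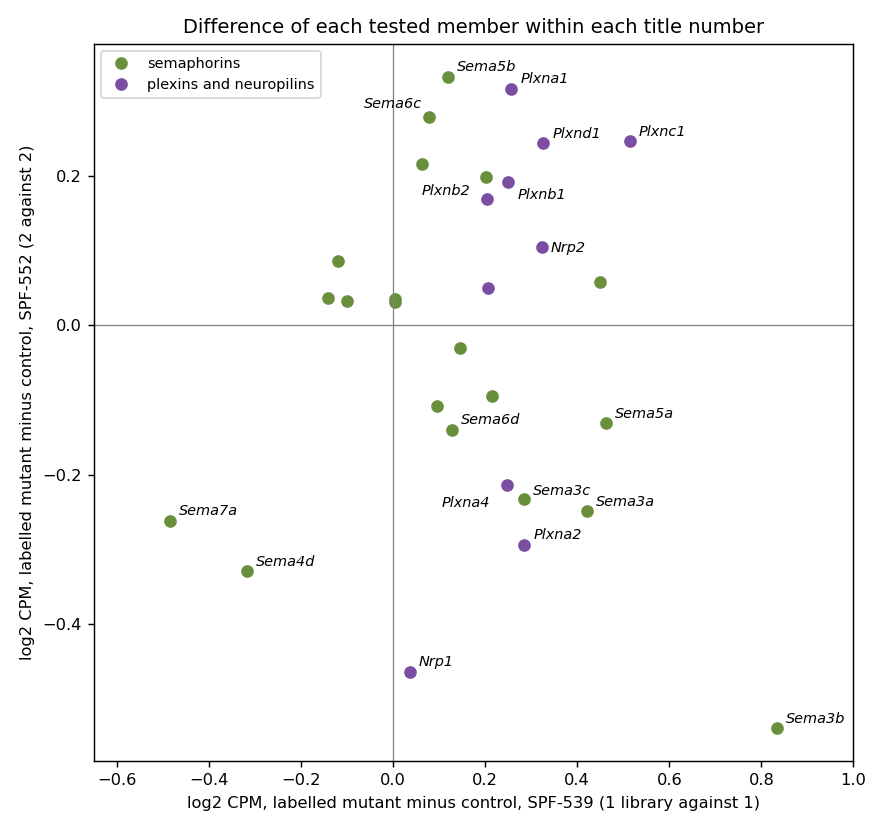
Difference in log2 CPM, labelled mutant minus control, of each tested member within SPF-539 (horizontal, 1 library against 1) and within SPF-552 (vertical, 2 against 2). The B, C and D plexins, Plxna1 and Nrp2 lie in the upper right, Sema7a and Sema4d in the lower left, and Nrp1, Plxna2, Plxna4 and Sema3a in the lower right, where the title numbers differ in sign.

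Co-receptors and cytoplasmic effectors of semaphorin signalling were read from a list of 50 genes, of which 49 were tested. None passed in the QL test. At an unadjusted p under 0.05, 2 of the 49 were higher and 5 lower, against 5.22% and 4.38% of all tested genes, with a median log2 fold change of 0.02. The groups did not overlap for 15 of the 49, 6 of them higher and 9 lower, against 16.7% of all tested genes. The 7 named here are those with an unadjusted p under 0.05. Cntn2, an axonal adhesion molecule of corticofugal neurons that partners L1 family proteins, was at 586, 405 and 371 CPM in libraries labelled mutant, against 729.9, 716 and 702 CPM in controls (-0.66, SE 0.141, QL adjusted p = 0.11). Every library labelled mutant lay below every control, and replicate 1 of the libraries labelled mutant lay nearest to the controls. The GTPases Rnd2 and Rnd1, which bind plexins or act in neuronal migration, had log2 fold changes of -0.31 (SE 0.0766, QL adjusted p = 0.17) and -0.69 (SE 0.195, QL adjusted p = 0.23). Sh3bp1, a Rac GTPase-activating protein found in Sema3E and Plexin-D1 signalling, had -0.56, and the kinase Pak1 had -0.19. Mical3, of the family of flavoprotein oxidases that plexins use to break down actin filaments, had 0.25, and Limk1, the kinase of cofilin, had 0.20.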

How the data were processed

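RNA was isolated with DNase treatment and sequenced from TruSeq v2 libraries, per the labels' protocols. The kit does not mark strand; exons of Plxna1, Plxna4, Plxnb1, Plxnc1, Nrp1, Sema4a and Sema4c overlap another annotated gene, none protein-coding, whose reads could be shared. Per the submitters' processing notes, TopHat2 2.0.9, HTSeq 0.5.4p5, edgeR 3.4.2 and mm10 (GRCm38) were used, with no order or role stated. The authors deposited estimated counts per gene, unscaled, of which 22.7% to 24.9% were not exactly whole, so their counting tool is unknown. A second table that the authors deposited lists 369 genes with log2 fold changes, a p-value and FDR, and a test score headed LR.

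Symbols came from GENCODE M21 (99.19% matched). Rounded counts of all 6 libraries entered edgeR 4.0.16 in R 4.3.3, with filterByExpr (minimum count 10), TMM factors, the robust quasi-likelihood test and Benjamini-Hochberg adjustment over 15216 genes. CPM use TMM-scaled library sizes, log2 CPM a prior count of 2, and CPM per kb the union of annotated exons. The median SE of a log2 fold change was 0.125. Replicates of a group differed beyond counting noise (chi-square 4.81 to 29.3 per gene). The labels do not say which embryos share a litter, so p-values measure the spread between these libraries. Alternatives used limma 3.58.1, DESeq2 1.42.0, other scalings and filters, the title number as a block and left-out libraries; the exon-length offset was chosen after seeing the data. The scripts were tested on simulated data. Values in every library are given for the 10 members of smallest p and for well-known ligand and receptor sets, and effectors are named at an unadjusted p under 0.05. The members and lists were chosen with earlier results of these data known.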

Additional observations from a re-analysis of the deposited data

How the results depend on the processing

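Over 18 other settings the log2 fold changes of 20 named members gave 360 values, of which 329 kept their direction and side of the threshold, 18 kept their direction and passed, and 13 changed sign. All 13 came from leaving out 1 library, over which the log2 fold change ran from -0.1434 to 0.0545 for Sema3a, -0.1769 to 0.0205 for Sema3c, -0.0487 to 0.1168 for Sema3f, -0.1542 to 0.0311 for Sema6d, -0.2436 to 0.0033 for Plxna2 and -0.1508 to 0.0129 for Plxna4. Members past an FDR of 0.05 numbered 2 with DESeq2, 8 within SPF-552, 0 to 3 over left-out libraries, and 5 with the exon-length offset and replicate block together, an alternative chosen after seeing the data; the causes were not tested.

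The number of all genes past the threshold was 21, and 194 with DESeq2, 150 with the likelihood-ratio test, 130 with no filter, 116 with the replicate block, 564 within SPF-552, 68 with the exon-length offset, 407 with both, and 56 at an FDR of 0.1. Leaving out 1 library gave 3 to 330. Over left-out libraries the members at an unadjusted p under 0.05 numbered 3 to 9 higher and 0 to 5 lower, with 2 to 6 receptors among the higher ones. Lower members numbered 8 within SPF-552, and 5 with the exon-length offset, with or without the block. The receptor median was 0.1217 with that offset and 0.122 with both. The Sap130 log2 fold change was 0.5623 to 0.6389 over left-out libraries. It lost its call without control replicate 1, 2 or 3, or replicate 2 of the libraries labelled mutant (QL adjusted p of 0.0976, 0.111, 0.0798 and 0.0689). Deviations from the group means correlated at 0.187 between the SPF-539 libraries and at 0.04 to 0.104 between SPF-552 libraries of different groups, against -0.123 to -0.099 between libraries of different numbers. The deviations of each group sum to 0 in every gene, so these values are tied to each other. A positive value for the SPF-539 pair by itself pulls the different-number values down and the SPF-552 values up. The higher same-number values are thus not read by themselves as a sign of something that libraries of 1 number have in common. Both SPF-539 libraries lay above all SPF-552 libraries in 10.7% of all tested genes and below them in 11.1%. With the replicate block, 116 of all genes were past the threshold, against 21 without it. What libraries of 1 number may have in common was not tested, and the labels do not state it. The replicate block took no member past an FDR of 0.05. At an unadjusted p under 0.05 it added Nrp1 to the lower members, 3 in place of 2, and with the exon-length offset it took the members past the FDR to 5, against 0 with the offset alone. The SE of a log2 fold change, from 0.0758 for Plxnb2 to 0.319 for Sema3b, limits what could be detected.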
